A study of Mus musculus with 12 samples.

Results

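The expression of 10 interferon-γ (IFN-γ) inducible GTPases was followed in abdominal aortas of CCN2fl/fl and CCN2SMCΔ mice. They were 6 guanylate-binding proteins (Gbp2, Gbp3, Gbp4, Gbp5, Gbp6 and Gbp7) and 4 immunity-related GTPases (Irgm1, Irgm2, Igtp and Iigp1), picked by gene symbol, 10 of the 55092 features listed. CCN2 (Ccn2), a matricellular protein, was deleted in smooth muscle cells of male mice by Myh11-Cre-ERT2, a tamoxifen-activated Cre recombinase driven by the promoter of the smooth muscle myosin gene. Mice of both genotypes carried the floxed alleles and received 5 doses of tamoxifen from 8 weeks of age and a 2-week washout, and the controls lacked Cre. Minipumps then delivered saline or Ang II at 500 ng/kg/min for 7 days, without added hypercholesterolemia. The 4 groups of 3 mice are called CFS (CCN2fl/fl, saline), CSS (CCN2SMCΔ, saline), CFA (CCN2fl/fl, Ang II) and CSA (CCN2SMCΔ, Ang II). Poly(A) RNA of the aorta was sequenced, and the deposited values are FPKM, the fragments of a gene scaled to its length and to the size of the library.

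IFN-γ is secreted mainly by T and NK cells and signals through the receptor chains Ifngr1 and Ifngr2 and the kinases Jak1 and Jak2 to transcription factors in the nucleus. Promoters of its target genes often hold GAS elements and ISRE elements, and ISRE elements also serve the response to type I interferons. Guanylate-binding proteins (GBPs) and immunity-related GTPases (IRGs) are classic products of this route in macrophages, fibroblasts and endothelial cells. Both families assemble on the vacuoles of intracellular pathogens, Iigp1 as an effector and Irgm1, Irgm2 and Igtp mainly as regulators of other IRGs.

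The members lay in a few gene clusters (GRCm38). Gbp5 (ENSMUSG00000105504, chromosome 3, 142493978 to 142522344), Gbp7 (ENSMUSG00000040253, 142530342 to 142550149), Gbp3 (ENSMUSG00000028268, 142560026 to 142573209) and Gbp2 (ENSMUSG00000028270, 142620602 to 142638008) followed each other on the plus strand of chromosome 3. Gbp4 (ENSMUSG00000079363, 105115767 to 105139586) and Gbp6 (ENSMUSG00000104713, 105270702 to 105293698) lay on the minus strand of chromosome 5. Irgm1 (ENSMUSG00000046879, 48861968 to 48871683, minus strand), Igtp (ENSMUSG00000078853, 58199556 to 58207591, plus strand) and Irgm2 (ENSMUSG00000069874, 58199618 to 58222782, plus strand) lay on chromosome 11. Iigp1 (ENSMUSG00000054072, 60376027 to 60392634, plus strand) lay on chromosome 18. All 10 are annotated as protein coding.

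Some reads could not be assigned to 1 member. Gbp6 shared 29.0% of its exonic bases with the neighboring annotated gene Gm43302, and 64.5% of its 100-base stretches occurred in another annotated gene, mostly Gm43302 (59.0%) and Gbp10 (36.3%), so its values are uncertain. Gbp7 shared 11.3% of its exonic bases with the pseudogene Gm43802. Igtp and Irgm2 shared 162 exonic bases, 8.01% of Igtp and 4.39% of Irgm2, and in the other members under 1% of the exonic bases were shared.

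Promoter windows of 300 bases (250 before to 50 after an annotated start, RefSeq, GRCm38.p6) were found for 7 of the 10 members. No entry was found for Gbp4, Gbp6 and Iigp1. The stretches shown hold the ISRE matches of all 7 members. They are the 120 bases before the start, or 170 for Gbp5, because its ISRE match began at -165. They are written 5′ to 3′ on the strand of the gene and end at the base before the start, with capitals marking matches to the ISRE core (GAAA, any 2 bases, GAAA, or on the other strand TTTC, any 2 bases, TTTC) or to the GAS motif (TTC, any 3 bases, GAA, which is its own reverse complement).
Gbp5, chr3:142496764-142496933, plus strand: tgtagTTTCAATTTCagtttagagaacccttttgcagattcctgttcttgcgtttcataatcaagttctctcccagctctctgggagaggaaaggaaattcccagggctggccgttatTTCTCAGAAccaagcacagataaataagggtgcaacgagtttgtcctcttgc
Gbp7, chr3:142530216-142530335, plus strand: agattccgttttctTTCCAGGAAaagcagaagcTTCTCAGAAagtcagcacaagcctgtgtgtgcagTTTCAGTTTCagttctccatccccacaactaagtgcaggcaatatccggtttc
Gbp3, chr3:142559924-142560043, plus strand: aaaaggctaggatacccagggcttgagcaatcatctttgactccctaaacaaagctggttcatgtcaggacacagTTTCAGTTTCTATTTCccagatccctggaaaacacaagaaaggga
Gbp2, chr3:142620543-142620662, plus strand: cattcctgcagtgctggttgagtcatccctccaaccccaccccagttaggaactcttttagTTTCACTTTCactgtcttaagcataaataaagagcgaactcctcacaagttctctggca
Irgm1, chr11:48871421-48871540, minus strand: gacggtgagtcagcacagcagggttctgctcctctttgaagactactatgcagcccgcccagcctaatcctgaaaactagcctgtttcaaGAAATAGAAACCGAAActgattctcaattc
Igtp, chr11:58199436-58199555, plus strand: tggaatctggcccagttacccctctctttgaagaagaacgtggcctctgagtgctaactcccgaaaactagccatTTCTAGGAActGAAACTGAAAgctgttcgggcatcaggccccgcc
Irgm2, chr11:58214857-58214976, plus strand: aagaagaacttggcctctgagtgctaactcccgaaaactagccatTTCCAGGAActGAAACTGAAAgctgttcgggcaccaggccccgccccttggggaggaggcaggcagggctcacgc

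The ISRE core occurred in 7 of 7 members, against 3.44% of 32851 windows of the same length. In Gbp3 and in Irgm1 a pair of matches overlapped. A second annotated start of Gbp3 had none in its window. The GAS motif occurred in 4 of 7 members (Gbp5, Gbp7, Igtp and Irgm2), against 8.3% of all windows, and both motifs together occurred in 0.454% of them. Neither motif was particular to the members. Of other GBPs, IRGs and relatives with a window, 6 of 9 held the ISRE core and 4 of 9 the GAS motif. Of genes of the type I interferon response with a window, 8 of 17 held the ISRE core and 4 of 17 the GAS motif. In Gbp7 the GAS matches began at -106 and -87 and the ISRE match at -53 from the start, and in Gbp2 the single ISRE match began at -59. Igtp and Irgm2 carried the same arrangement, with GAS at -45 and ISRE at -34 in Igtp and at -75 and -64 in Irgm2. With that offset of 30 bases their windows were identical at 184 of 270 positions (68.1%). A match is a description of the letters and not a measured binding site.

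Depth, recovered as the fragments behind the FPKM, ranged from 14558580 to 23107811 per mouse. CSA mouse 03 had the lowest depth and stood apart from CSA mice 01 and 02, with a root mean square difference of 1.199 to 1.213 on the log2 scale against 0.505 between mice 01 and 02. The targeted gene, Ccn2, measured 1013, 1105 and 564 FPKM in CFA and 255, 331 and 399 in CSA, so every CSA mouse was below every CFA mouse (log2 fold change -1.41, SE 0.34, adjusted p = 0.00622 from limma, short of the fold limit of 1.5). The exact permutation test gave p = 0.1, the smallest that 3 mice against 3 allow. Under saline Ccn2 measured 710, 1108 and 480.1 FPKM in CFS and 436, 640 and 587 in CSS, and these ranges overlapped (log2 fold change -0.40, exact permutation p = 0.4). Ccn2 shares 23.2% of its exonic bases with an antisense transcript, from which its reads cannot be told apart without strand. Smooth muscle markers, the defining genes of this tissue, summed to 7446 to 9926 FPKM in the saline mice, 5226 to 8122 in CFA and 780.1 to 916 in CSA.

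To ask how deletion of CCN2 in smooth muscle cells relates to the GTPases under Ang II, CSA was compared with CFA. The paper reports infrarenal aneurysm in nearly all CCN2SMCΔ mice on this Ang II regimen, against mild aneurysms elsewhere in few controls. The labels do not give aneurysm for each sequenced mouse. Genotype and aneurysm therefore cannot be told apart in this comparison. All 10 members were higher in every CSA mouse than in any CFA mouse, as were 23.4% of the 14676 genes tested. A total of 9, all but Gbp4, were upregulated at an adjusted p under 0.05 and a log2 fold change above 1.5, against 8.95% of all genes tested, and 0 were downregulated, against 8.27%. Fold changes were on the log2(FPKM + 0.1) scale, with p values from limma over all genes tested. The median log2 fold change of the 10 was 2.16, against -0.04 over all tested genes. It was 2.69 for the 4 IRGs, of which 4 rose, and 1.87 for the 6 GBPs, of which 5 rose. Gbp6 reached 1 FPKM in CSA and in a single CSS mouse, so it entered the test through the group in which it was high. Each member's expression in a whole aorta can change because there are more cells that express it or because each cell holds more of its RNA, and bulk RNA cannot tell these apart.

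Among the IRGs, Iigp1, an effector that coats pathogen vacuoles, measured 5.53, 6.22 and 6.76 FPKM in CFA and 54.9, 47.5 and 94.4 in CSA. It had the largest difference of the 10, a log2 fold change of 3.33 or 10.1-fold (SE 0.24, adjusted p = 3.19e-06 from limma). Irgm1, a regulatory IRG, measured 3.85, 5.56 and 3.43 FPKM in CFA and 26.8, 25.4 and 36.8 in CSA. The lowest CSA mouse was thus well above the highest CFA mouse (log2 fold change 2.78, SE 0.22, adjusted p = 5.83e-06 from limma). Igtp, also known as Irgm3, measured 4.47, 5.10 and 5.76 FPKM in CFA and 31.0, 29.98 and 33.3 in CSA. Its 3 CSA mice lay close together, and its log2 fold change was 2.60 (SE 0.21, adjusted p = 5.36e-06 from limma). Irgm2 measured 6.63, 7.19 and 7.15 FPKM in CFA and 27.1, 25.6 and 40.99 in CSA, with mouse 03 highest (log2 fold change 2.11, SE 0.24, adjusted p = 5.37e-05 from limma).

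Among the GBPs of chromosome 3, Gbp2 had the highest FPKM, with 13.6, 15.3 and 17.8 in CFA and 59.8, 51.3 and 120.1 in CSA. CSA mouse 03 was well above mice 01 and 02, and all 3 were above CFA (log2 fold change 2.21, SE 0.31, adjusted p = 2.00e-04 from limma). Gbp3 measured 4.40, 5.87 and 7.28 FPKM in CFA and 35.7, 33.6 and 51.1 in CSA, the largest difference among the GBPs (log2 fold change 2.76, SE 0.32, adjusted p = 6.22e-05 from limma). Gbp5, which is known to promote inflammasome assembly, measured 2.20, 2.44 and 2.46 FPKM in CFA and 9.16, 7.25 and 10.6 in CSA. The CFA mice were nearly level and all 3 CSA mice were higher (log2 fold change 1.87, SE 0.29, adjusted p = 4.26e-04 from limma). Gbp7 measured 3.83, 4.19 and 5.49 FPKM in CFA and 14.0, 11.97 and 22.5 in CSA, again with mouse 03 highest (log2 fold change 1.79, SE 0.27, adjusted p = 3.71e-04 from limma).

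The pair on chromosome 5 had the lowest mean FPKM in CFA and CSA, although Gbp4 and Gbp5 overlapped in CFA and Gbp4 had the higher mean of these 2 in CFS and CSS. Gbp6 measured 0.447, 0.586 and 0.531 FPKM in CFA and 2.06, 1.65 and 2.95 in CSA (log2 fold change 1.87, SE 0.33, adjusted p = 9.21e-04 from limma), on 51 to 269 fragments per library over the 12 mice. The call did not hold with a pseudocount of 1, where its log2 fold change was 1.06. Gbp4 measured 2.10, 1.86 and 2.78 FPKM in CFA and 5.17, 4.86 and 6.27 in CSA. The groups did not overlap, but the log2 fold change of 1.25 was short of the fold limit and had an adjusted p of 0.0542 from limma (SE 0.47, 95% interval 0.21 to 2.28).

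**Figure D1:**
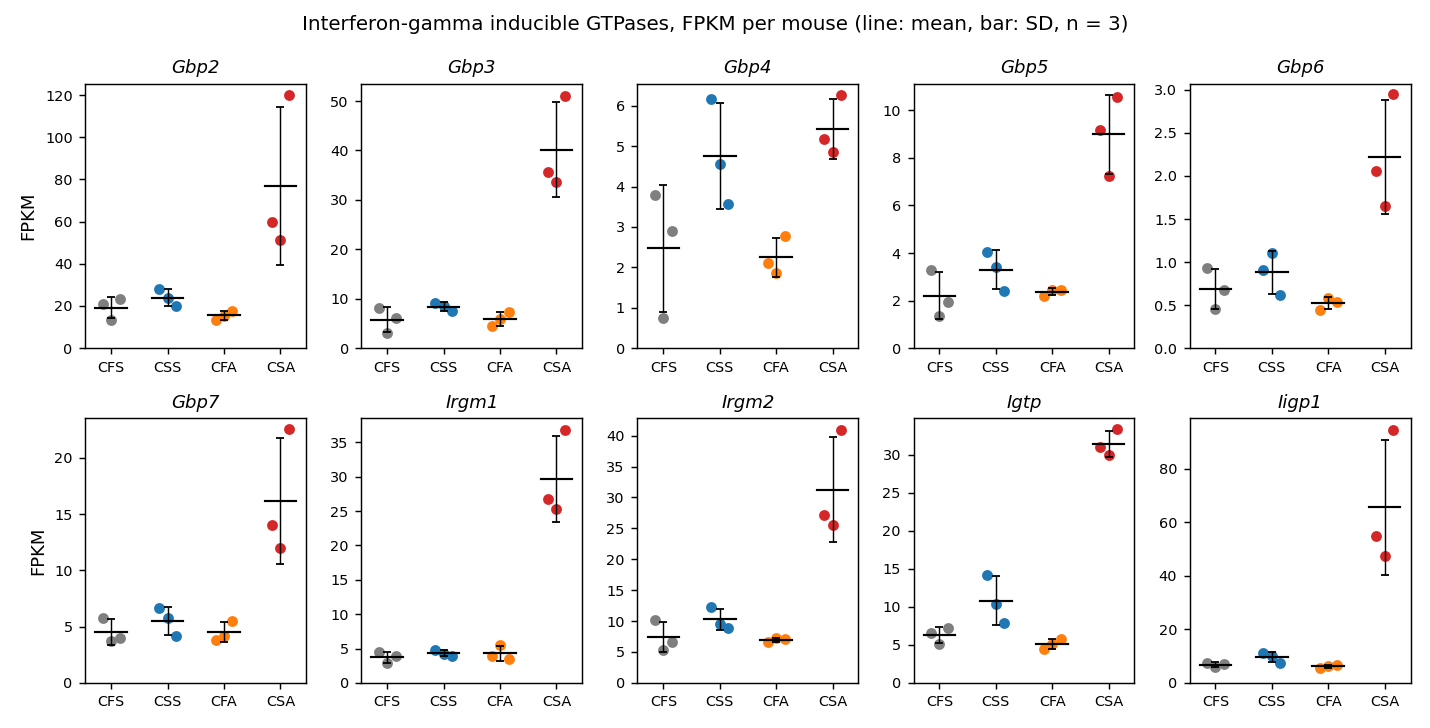
FPKM of the 10 GTPases in each mouse (points), by group on the horizontal axis, with a line at the mean and a bar for the SD (n = 3 mice a group); each panel has its own linear axis from 0. In every panel the 3 CSA points lie above the 3 CFA points, and for Gbp4 the CSA and CSS points overlap.

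CSA mouse 03 was the highest CSA mouse for 10 of 10 members, whereas it was the highest for 43.8% of all genes tested and the lowest for 46.2%. It also had fewer features above 0, at 18883 against 24761 and 24012 in mice 01 and 02. Without mouse 03, 9 members still passed the test in CSA against CFA, with log2 fold changes from 1.52 (Gbp7) to 3.03 (Iigp1). For Gbp2, the member with the widest spread, the log2 fold change without mouse 03 was 1.83.

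Under saline, the same genotype comparison gave smaller values. No member passed the test in CSS against CFS (0 of 10, against 0.0136% of all genes), and Igtp and Gbp4 reached an unadjusted p under 0.05 in limma, 2 of 10 against 6.3% of all genes. The log2 fold change was above 0 in 10 of 10 members, as in 52.6% of all genes, with a median of 0.50 against 0.01 over all genes. Igtp measured 6.50, 5.08 and 7.23 FPKM in CFS and 14.2, 10.4 and 7.82 in CSS, without overlap between the groups (log2 fold change 0.75, 95% interval 0.29 to 1.204, adjusted p = 0.437 from limma). Iigp1 also did not overlap, with 7.37, 5.75 and 7.19 FPKM in CFS and 11.3, 10.1 and 7.52 in CSS (log2 fold change 0.49, adjusted p = 0.825 from limma). These 2 of 10 compare with 11.1% of all genes in which every CSS mouse was above every CFS mouse. Gbp4 measured 3.78, 0.735 and 2.90 FPKM in CFS and 6.17, 4.56 and 3.56 in CSS (log2 fold change 1.15, 95% interval 0.12 to 2.19, adjusted p = 0.703 from limma).

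A single control mouse weighed on these values. CFS mouse 69 was the lowest of its group for 10 of 10 members, against 31.8% of all genes, and the lowest of the 9 CFS, CSS and CFA mice for 7 members. Its endothelial markers were the lowest of the group as well (6 of 6), with a sum of 103 FPKM against 422 and 412 in mice 68 and 70. Without it the log2 fold change under saline was 0.10 for Gbp2, 0.24 for Gbp3, 0.47 for Gbp4, 0.34 for Gbp5 and 0.10 for Gbp6. It was 0.04 for Irgm1, 0.30 for Irgm2 and 0.60 for Igtp, and 0 members passed the test. The value was lower without this mouse for all 10 members, so the median of 0.50 was lower too. In CSS, mouse 54 was the highest for 9 of 10 members and 6 of 6 endothelial markers, and mouse 56 the lowest for 10 of 10 members and 5 of 6 endothelial markers. In both saline groups the mouse lowest for the members was thus also lowest for most endothelial markers. In CFA this held in part, and in CSA mouse 03, the highest for 10 of 10 members, was the lowest for 3 of 6 endothelial markers and the highest for 2. In CFA, mouse 74 was the highest for 7 members and 6 of 6 endothelial markers, but mouse 71 was the lowest for 8 members and for 1 of 6 endothelial markers, and mouse 72, with the lowest endothelial sum (196 FPKM against 321 in mouse 71), had the higher members' sum of these 2 mice (54.3 against 47.0 FPKM). Leukocyte marker sums also ranked the CSS mice as the members did for several lists, with values given beside the leukocyte markers. The part of endothelial or leukocyte content in these values was not tested.

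Ang II was set against saline within each genotype, first in CCN2fl/fl mice. No member passed the test in CFA against CFS (0 of 10, against 0.0273% of all genes), and 0 reached an unadjusted p under 0.05 in limma, against 9.42% of all genes. The log2 fold changes ran from -0.30 (Gbp6) to 0.19 (Irgm1), with a median of -0.01, and the ranges of CFA and CFS overlapped for all 10 members, while in 9.44% of all genes every CFA mouse was above every CFS mouse. Intervals of 95% still reached -1.02 for Gbp6 and 1.15 for Gbp4, so changes of up to about that size remain possible with 3 mice a group.

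In CCN2SMCΔ mice, levels of most members were higher with Ang II than with saline. In CSA against CSS, 7 of 10 were upregulated, against 10.9% of all genes, and 0 were downregulated, against 9.36%, with a median log2 fold change of 1.58 against -0.06 over all genes. Irgm1 measured 4.78, 4.21 and 3.91 FPKM in CSS, far below the 25.4 to 36.8 of CSA (log2 fold change 2.74, SE 0.22, adjusted p = 3.98e-06 from limma). Iigp1 (log2 fold change 2.71) and Gbp3 (2.22) followed, and Gbp2 (1.59), Irgm2 (1.58), Igtp (1.57) and Gbp7 (1.51) were just past the fold limit. Gbp5 (1.43, adjusted p = 0.00197) and Gbp6 (1.24, adjusted p = 0.00935) were short of it in limma. Gbp4 was at 6.17, 4.56 and 3.56 FPKM in CSS and 4.86 to 6.27 in CSA, so its ranges overlapped (log2 fold change 0.21, 95% interval -0.82 to 1.25, adjusted p = 0.736 from limma), while the other 9 did not, against 26.3% of all genes with every CSA mouse above every CSS mouse. The count depended on single mice, since it was 4 without CSA mouse 03 and 3 without CSS mouse 56, the lowest CSS mouse for all 10 members. It also depended on the settings, at 4 with a pseudocount of 1 and 4 with array weights.

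**Figure D2:**
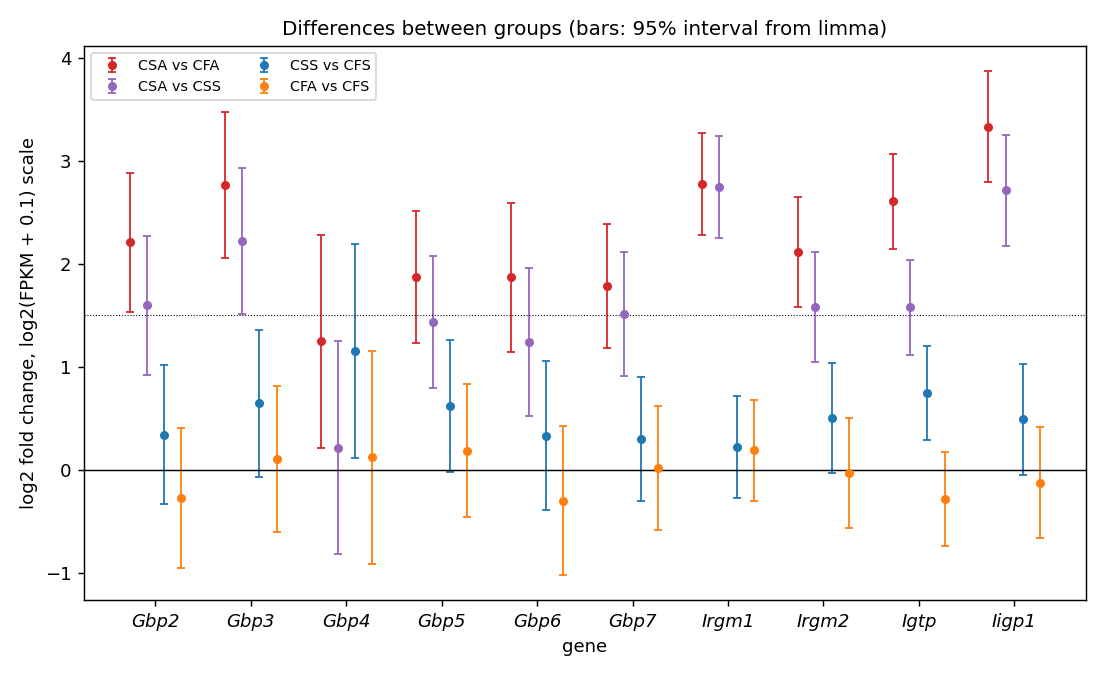
Log2 fold changes of the 10 GTPases on the log2(FPKM + 0.1) scale in 4 comparisons (points, by color), with 95% intervals from limma as bars, a solid line at 0 and a dotted line at the fold limit of 1.5. The intervals of CSA vs CFA lie above 0 for 10 of 10 genes and those of CFA vs CFS include 0 for 10 of 10.

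Whether the genotype difference itself changed with Ang II was tested as the interaction of genotype and treatment. It was larger under Ang II than under saline for 7 of 10 members past both limits, against 7.89% of all genes. Gbp6 is among the 7 and entered the test through the CSA libraries, in which it was high. The interaction, in log2 units, was 2.84 for Iigp1 (SE 0.34, adjusted p = 2.48e-04 from limma), 2.56 for Irgm1 (adjusted p = 2.74e-04) and 2.12 for Gbp3 (adjusted p = 0.00595). It was 1.87 for Gbp2, 1.86 for Igtp, 1.61 for Irgm2 and 1.54 for Gbp6, with adjusted p from 0.00107 (Igtp) to 0.0306 (Gbp6) in limma. Gbp7 (1.49, adjusted p = 0.0153) and Gbp5 (1.25, adjusted p = 0.0450) were short of the fold limit in limma. For Gbp4 the interaction was 0.10 (95% interval -1.37 to 1.56, adjusted p = 0.936 from limma), with log2 fold changes of 1.15 under saline and 1.25 under Ang II. Without CSA mouse 03, 4 members passed in place of 7.

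The members were then ordered by level within each group. FPKM are scaled to gene length, so levels can be set side by side, with a limit for Iigp1: its values did not give whole fragments with the annotated exon length used here, whereas those of the other 9 did, so the length behind its FPKM may differ and its place in the order and its share of the sum are uncertain. Gbp2 was first in each group, at 19.2 ± 5.05 FPKM in CFS, 23.9 ± 4.01 in CSS, 15.6 ± 2.14 in CFA and 77.1 ± 37.5 in CSA (SD, n = 3). Its range was above that of the second member in all groups but CSA. Gbp6 was last in all 4, at 0.521 ± 0.0698 FPKM in CFA and 2.22 ± 0.665 in CSA (SD, n = 3), without overlap with the member above it. In between, most neighbors in the order overlapped in CFS, CSS and CFA but not in CSA, and places moved between groups. Igtp was second in CSS, 4th in CFS and CSA and 5th in CFA, and Gbp4 was 7th in CSS, 8th in CFS and 9th in CFA and CSA. In CFA, Irgm2, Iigp1, Gbp3, Igtp, Gbp7 and Irgm1 each overlapped with the next, from 6.99 ± 0.311 to 4.28 ± 1.13 FPKM (SD, n = 3). In CSA, Iigp1 was second at 65.6 ± 25.2 FPKM and overlapped with Gbp2, Gbp3 followed at 40.1 ± 9.57, and Igtp (31.4 ± 1.70), Irgm2 (31.2 ± 8.47) and Irgm1 (29.6 ± 6.24) overlapped one another (SD, n = 3). Iigp1 made up 11.5% of the summed member mean in CFA and 21.3% in CSA, while Gbp2 made up 29.0% and 25.02% and Gbp4 4.20% and 1.76%. The sum of the 10 members was 41.8 to 71.5 FPKM in CFS, 66.4 to 97.4 in CSS, 47.0 to 59.4 in CFA and 239.1 to 419.1 in CSA.

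The members' profiles over the 12 libraries were much alike. Over their 45 pairs, Pearson r of log2(FPKM + 0.1) ran from 0.59 to 0.98 with a median of 0.96, a description in which all 3 CSA libraries are the highest of the 12 for 9 of the 10 genes. Outside the 10, the genes most like their mean profile were Tgtp2, another IRG (r = 0.995 over 12 libraries), Gm8995 (0.976), Ly6a (0.976), which encodes the surface antigen Sca-1, Pop4 (0.975) and Gm4070 (0.975). Tgtp2 averaged 1.83 FPKM in CFS, 2.99 in CSS, 1.64 in CFA and 21.8 in CSA, and Ly6a averaged 126, 145, 104 and 366.

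The genes upstream of the members were described next, from the ligand to the transcription factors, in CSA against CFA. Ifng, the ligand, was near the limit of detection: it was at 0 in all 3 CFA and all 3 CSS mice, at 0.179 in a single CFS mouse and at 0.418, 0.291 and 0.454 FPKM in CSA, on 8 to 11 fragments. A value of 0 allows up to 3 fragments. Of the 5 ligand and inducer genes only Il18, a cytokine that elicits IFN-γ, had enough signal to be tested, and it rose from 1.98 ± 0.405 to 10.6 ± 3.65 FPKM (SD, n = 3), with a log2 fold change of 2.33 and a limma adjusted p of 1.21e-04. The others were not tested: Il12b averaged 0.0639 FPKM in CFA and 1.24 in CSA, Il27 0.123 and 1.96, with a CSA mouse at 0, and Il12a 0.0732 and 0.0836. None of the 4 receptor and kinase genes passed the fold limit, with log2 fold changes of 1.23 (Jak2), 0.71 (Ifngr1), 0.54 (Jak1) and 0.21 (Ifngr2), and the first 3 had an adjusted p under 0.05 in limma. Of 6 transcription factors 4 rose, Irf8 (2.99), Stat2 (2.59), Irf9 (1.99) and Batf2 (1.73), while Irf1 (1.32) and Irf2 (1.07) were short of the fold limit. Irf8 went from 1.81 ± 0.970 FPKM in CFA to 14.6 ± 4.96 in CSA (SD, n = 3), with 8.85 in the lowest CSA mouse against 2.93 in the highest CFA mouse. Of 6 inhibitors of the pathway 2 rose, the phosphatase Ptpn6 (3.67) and Socs3 (3.17). The other 4 were at 0.97 (Ptpn2), 0.64 (Socs1), -0.14 (Pias1) and -0.94 (Ptpn11).

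Related GTPases and other interferon response genes were counted in the same comparison. Of 17 other GBPs, IRGs and relatives, 12 were tested and 9 rose, with a median log2 fold change of 2.70, led by the IRGs Gm12250 (4.18), Tgtp1 (3.70) and Tgtp2 (3.60). Gbp8 (2.53) and Gbp9 (1.61), which share few bases with Gbp4, were among those that rose. Irgq lay the other way, lower in every CSA mouse than in any CFA mouse. Its log2 fold change was -0.56 (adjusted p = 0.0279 from limma), short of the fold limit. Of 3 atlastins, GTPases of the endoplasmic reticulum related to GBPs and not known as interferon targets, 2 were tested and 0 passed (Atl3 -0.93, Atl2 -0.56), and Atl1 was not tested (0.688 FPKM in CFA and 0.739 in CSA on average). Of 24 other genes known to respond to IFN-γ, 21 were tested and 14 rose (median 2.20), with Cxcl10 (5.66), Acod1 (5.52) and Fcgr1 (5.24) at the top. The 7 that did not pass included Serping1 (0.26), Icam1 (0.20) and Wars (-0.27). Of those not tested, Ido1 averaged 0.580 FPKM in CFA and 0.0886 in CSA, without overlap, and Ubd 0.167 and 1.17. Of 22 genes of the type I interferon response, 21 were tested and 19 rose, with a median of 4.39 and Oas3 (5.55), Mx1 (5.49) and Irf7 (5.42) at the top. Several of these genes, like Gbp6, would not have been tested without the CSA libraries: 5 of the 12 GBPs, IRGs and relatives (Tgtp1 and Gbp8 among them), 6 of the 21 IFN-γ response genes (Acod1 among them), 6 of the 21 type I interferon genes (Oas3 and Mx1 among them) and the transcription factor Batf2. Their counts and medians therefore describe the tested genes and lean toward genes high in CSA.

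The genes that the GTPases work with were also counted. Of 13 genes linked to the loading of GBPs and IRGs onto vacuoles (10 of autophagy conjugation, the ubiquitin ligases Traf6 and Trim21 and the adaptor Sqstm1), 0 rose and Map1lc3a fell by 1.70 on the log2 scale, with a median of 0.09. Trim21 (1.40) and Gabarapl1 (-1.01) had the next largest changes and were short of the fold limit. Of 7 inflammasome genes, whose activation GBPs promote, 6 rose: Il1b (5.604), Nlrp3 (4.08), Aim2 (3.17), Casp4 (1.99), Casp1 (1.92) and Gsdmd (1.505), with Pycard at 1.24. Nlrp3 and Aim2 would not have been tested without the CSA libraries. Each of these counts is read against the 8.95% of all genes that rose.

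**Figure D3:**
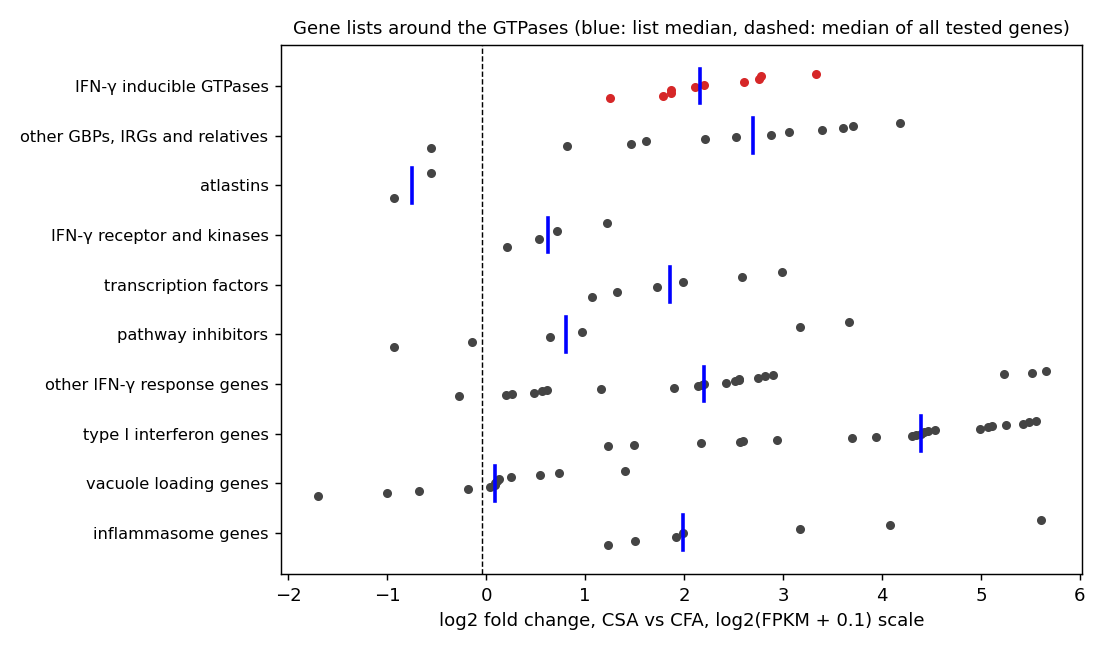
Log2 fold changes, CSA vs CFA, on the log2(FPKM + 0.1) scale, of each tested gene (points) of the 10 GTPases and of 9 gene lists, with a blue line at each list's median and a dashed line at the median of all tested genes (-0.04). The 10 GTPases spread from 1.25 to 3.33, the type I interferon genes reach 5.55, and the vacuole loading genes lie around 0.

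Markers of several leukocytes moved with the members. In CSA against CFA, 6 of 8 macrophage markers rose (Adgre1, Cd68, Csf1r, Itgam, Lyz2 and C1qa, but not Mrc1 and Mertk), with sums of 303 to 601 FPKM in CFA and 1847 to 1945 in CSA. Mertk was lower in every CSA mouse than in any CFA mouse (log2 fold change -0.73, adjusted p = 0.0185 from limma), short of the fold limit. All 3 monocyte markers, Ly6c2, Ccr2 and Plac8, rose (6.08 to 17.3 against 241.02 to 289 FPKM). So did 5 of 5 tested neutrophil markers, S100a8, S100a9, Csf3r, Cxcr2 and Retnlg (summed with Ly6g, which was not tested, 11.01 to 27.9 against 508 to 556 FPKM). All 8 T cell markers, Cd3e, Cd3d, Cd3g, Lck, Cd4, Cd8a, Cd8b1 and Trbc2, rose (1.32 to 3.48 against 33.3 to 43.99 FPKM). So did 2 of 2 tested NK cell markers, Klrd1 and Gzmb. Summed with the 4 NK cell markers that were not tested, they came to 0.736 to 2.37 FPKM in CFA and 16.0 to 21.6 in CSA. The filter weighed on these counts, since 7 of the 8 T cell, 2 of the 2 NK cell, 2 of the 2 B cell, 1 of the 3 monocyte, 2 of the 5 neutrophil, 2 of the 5 dendritic cell and 1 of the 8 macrophage markers tested would not have been tested without the CSA libraries, and 4 NK cell markers (Ncr1, Klrb1c, Prf1 and Eomes) were not tested. For B cells, Cd79b rose and Cd79a did not pass (summed with Ms4a1, which was not tested, 0.759 to 2.07 against 3.78 to 6.998 FPKM). Of 5 tested dendritic cell markers 2 rose, Flt3 and Itgax, while Zbtb46, Clec9a and Cd209a did not pass and Xcr1 was not tested. Zbtb46 was also lower in every CSA mouse than in any CFA mouse (log2 fold change -0.80, adjusted p = 0.00158 from limma). The neutrophil marker Ly6g, not tested, was at 0 in 2 of 3 CSA mice, and no T cell or NK cell marker was at 0 in CSA. All 6 smooth muscle markers fell (Myh11, Acta2, Cnn1, Tagln, Smtn and Myocd), as did the endothelial markers Pecam1, Tek and Vwf, 3 of 6, with endothelial sums of 196 to 465 FPKM in CFA and 111 to 142 in CSA. Cdh5 (-0.36) and Cldn5 (-1.11) did not pass. Kdr did not pass either but lay the other way (log2 fold change 0.92, adjusted p = 0.0809 from limma), at 2.45 to 5.36 FPKM in CFA and 5.37 to 8.69 in CSA. Of 5 fibroblast markers (Pdgfra, Dcn, Lum, Col1a1 and Dpt) 0 passed both limits, but their sums did not overlap, at 2078 to 2312 FPKM in CFA and 3498 to 4181 in CSA. By log2 fold change Lum (1.44, limma adjusted p = 2.22e-04) and Col1a1 (0.96, adjusted p = 5.29e-04) were higher in every CSA mouse than in any CFA mouse and Dpt (-1.13, adjusted p = 3.49e-04) was lower, all short of the fold limit. The adipocyte markers Plin1 and Lep fell, 2 of 4, while Adipoq and Cidec did not pass, nor did the 3 tested skeletal muscle markers, Ckm, Acta1 and Tnnt3. Myh4 was not tested. The part of leukocytes, fibroblasts and endothelial cells in the members' difference was not tested.

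Whether the leukocyte markers followed the members mouse by mouse differed by group, as described here without a test. In CSS, 5 of 7 leukocyte lists ranked the 3 mice as the members' sum did (97.4, 81.4 and 66.4 FPKM in mice 54, 55 and 56). Macrophage sums were 310.2, 303.2 and 257.04 FPKM in that order, monocyte sums 4.89, 4.46 and 3.24, T cell sums 4.55, 1.95 and 1.42, NK cell sums 1.77, 1.39 and 0.780, and B cell sums 2.78, 1.48 and 1.05. The ranking was shared by 1 of 7 lists in CFS (dendritic cell), 0 of 7 in CFA and 2 of 7 in CSA (monocyte and neutrophil). CFA mouse 72 had the highest macrophage sum of its group (601 FPKM against 322 and 303) and the highest level of 20 of 21 type I interferon genes, but the highest level of 3 of 10 members. In CSA, mouse 03 had the highest members' sum (419.1 FPKM against 265.7 and 239.1). Its monocyte sum (289 FPKM against 245 and 241.02) and neutrophil sum (556 against 529 and 508) were the highest of the group too. Its macrophage sum (1847 against 1909 and 1945 FPKM), dendritic cell sum (23.1 against 29.1 and 26.4) and B cell sum (3.78 against 6.998 and 6.55) were the lowest, and its T cell sum (39.4 against 43.99 and 33.3 FPKM) and NK cell sum (17.1 FPKM, in a range of 16.0 to 21.6) lay between those of mice 01 and 02. Its endothelial sum (111.2 FPKM against 142.0 and 110.7) was level with that of mouse 02 and below that of mouse 01.

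**Figure D4:**
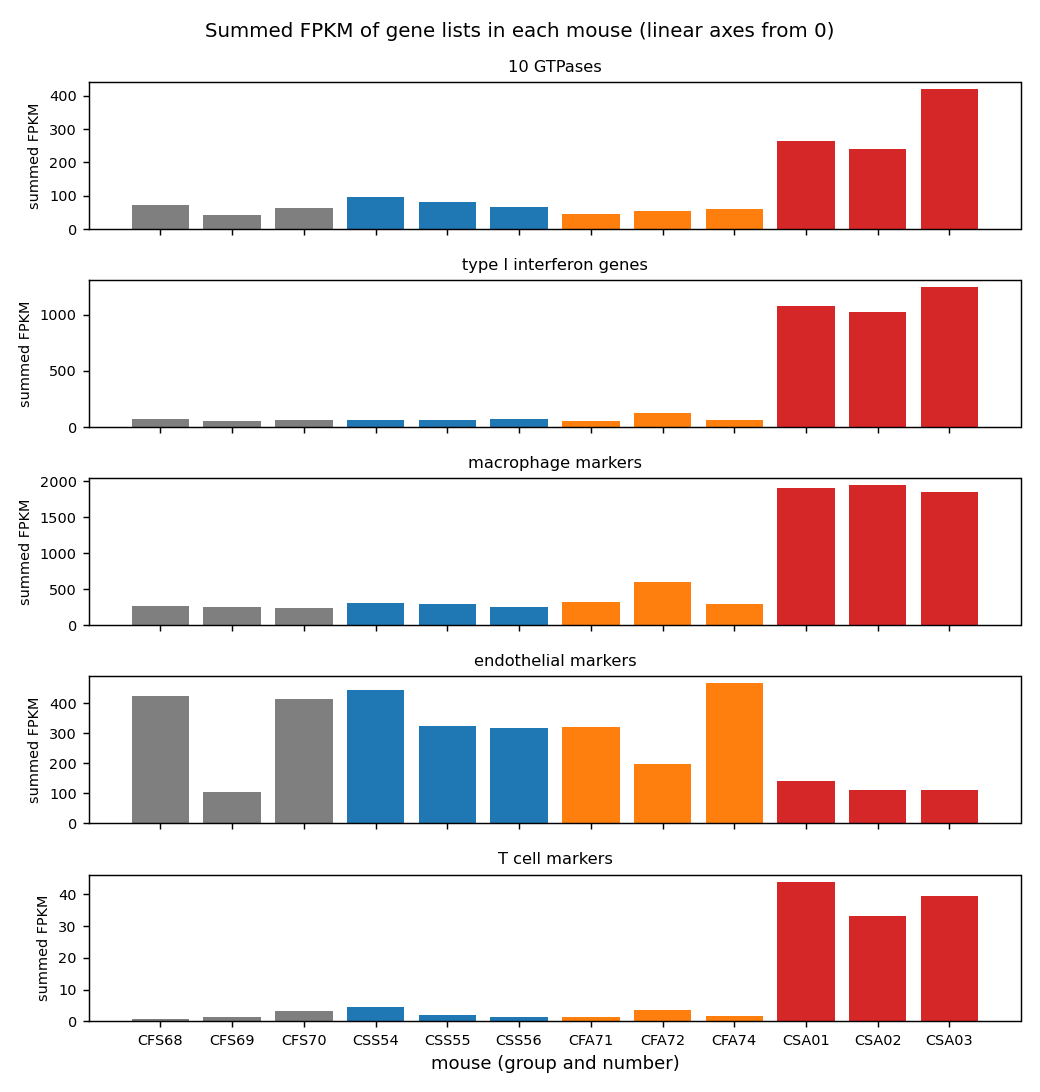
Summed FPKM in each of the 12 mice (bars, colored by group, linear axes from 0) of the 10 GTPases, the type I interferon genes and the macrophage, endothelial and T cell markers. CSA mouse 03 has the highest bar of the 10 GTPases (419.1), CFA mouse 72 stands above CFA mice 71 and 74 for macrophage markers (601), and CFS mouse 69 has the lowest endothelial bar (103).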

How the data were processed

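The 12 libraries each came from the abdominal aorta of a male mouse (4 groups, n = 3), with the group and number of each mouse taken from the labels and 0 columns left unused. The authors deposited 1 FPKM value per gene and mouse; the submitters' processing notes name HISAT2 2.0.5, StringTie 1.3.3b, featureCounts 1.5.0-p3 and mm10, and whether counting used strand is not given in the sources used here. The deposited FPKM carry a scaling between libraries that the sources do not describe, seen as equal median ratios in all 12. Symbols, positions and exon lengths came from GENCODE M21 (GRCm38), and promoters from RefSeq. With those lengths, 97.8% to 98.4% of values under 100 fragments came out whole (within 0.02), and their sums gave the depth; floors and fragments cover counting error only.

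The study called genes with DEG-Seq, which needs counts. Here limma 3.58.1 (R 4.3.3; trend and robust settings) was fitted to log2(FPKM + 0.1) of all 12 libraries with 1 mean per group, over the 14676 genes that reached 1 FPKM in 3 or more libraries, with Benjamini-Hochberg adjustment; genes passed at an adjusted p under 0.05 and a log2 fold change beyond 1.5. Ccn2 was also compared by a two-sided exact permutation test. With 1 sequenced aorta per mouse, p values measure the spread between mice. The scripts were tested on simulated data. The text names all 10 members, Ccn2, the cell markers, from each pathway list the 3 genes with the largest absolute change in CSA against CFA (all genes of lists of 7 or fewer), and the 5 genes most correlated with the members' mean. Gbp8, Gbp9, Irgq, Serping1, Icam1, Wars, Ido1 and Ubd were named after their values were seen. Genes left out of the transcription factor, monocyte and B cell lists are not reported here. The members, lists and rules were chosen with earlier results of these data known. The 21 alternatives covered the pseudocount, filters, scaling, fit settings and leaving out each mouse.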

Additional observations from a re-analysis of the deposited data

Results flagged for a closer look

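For 7 members the genotype difference was tested to be larger under Ang II than under saline, by the interaction term in limma. The differences of the 2 log2 fold changes were 2.84 for Iigp1, 2.56 for Irgm1, 2.12 for Gbp3, 1.87 for Gbp2, 1.86 for Igtp, 1.61 for Irgm2 and 1.54 for Gbp6. In all 7 the CSA mice were higher than the CFA mice, and the CSS and CFS ranges overlapped except for Igtp and Iigp1. Without CSA mouse 03 the interaction of Gbp2 (1.497), Irgm2 (1.40) and Gbp6 (1.32) no longer passed, and without CFS mouse 68 those of Irgm2 (1.36) and Gbp6 (1.32) did not. That of Gbp6 also had an adjusted p above 0.05 in several fits without a single other mouse, up to 0.0786 without CSS mouse 56, and its reads are shared with Gm43302 and Gbp10. Gbp6 also entered the test through the CSA libraries, in which it was high.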

How the results depend on the processing

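The 9 members upregulated in CSA against CFA numbered 7 of 7 tested with a mean FPKM of at least 5, 8 with a pseudocount of 1, where Gbp6 missed the fold limit, and 9 in each of the other 19 alternatives. None of 207 refitted values of that comparison reversed, and they ran from 0.99 to 3.53. Many of these refits, such as those without a CFS or CSS mouse, cannot move a fold change between CSA and CFA. The median-of-ratios scaling could barely move any, because its factor was the same (1.01351) in every library. In CSS against CFS and CFA against CFS, 0 members passed in every alternative. In CSA against CSS, 7 became 4 with a pseudocount of 1 and 4 with array weights, and 3 to 8 when single mice were left out. The interaction count was 4 to 9 when single mice were left out. Ccn2 in CSA against CFA (-1.41) passed when no fold limit was set (-1.41) and with array weights (-1.61), and ran from -1.71 (without CFA mouse 74, passed) to -1.23 without single mice, passing also without CSA mouse 03 (-1.56). Changes near 0 turned sign in CFA against CFS: with array weights Gbp3 (-0.21), Gbp4 (-0.11) and Gbp7 (-0.15), and without single mice Gbp3 (-0.30 to 0.40), Gbp4 (-0.56 to 0.55), Gbp5 (-0.10 to 0.51), Gbp7 (-0.13 to 0.22), Irgm1 (-0.013 to 0.33) and Irgm2 (-0.23 to 0.22). The interaction of Gbp4 also did (-0.34 to 0.77). For Gbp4 in CSA against CFA the adjusted p from limma ran from 0.00181 without CFS mouse 69 to 0.135 without CFA mouse 72, with the log2 fold change under 1.5 in every alternative. The cause of these changes was not tested. No paired analysis was possible because the groups share no mouse numbers. Depth was lowest for Gbp6, at 51 to 269 fragments, and no detection limit was measured.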
